A study of Rattus norvegicus with 14 samples.

Results

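Epileptic rats on a ketogenic diet (PILO+KD) were compared with controls (CTRL) for methylated DNA in the dorsal hippocampus. Of 310070 regions in the deposited table, 155092 had a sum of sequence tags over the 14 animals at or above the median of all regions and were tested. The comparison used 5 PILO+KD and 5 CTRL animals, 10 of the 14. All were male Wistar rats, the controls age-matched, and all received methyl scopolamine (1 mg/kg), which limits the peripheral effects of cholinergic drugs. PILO+KD animals were then given pilocarpine (340 mg/kg, with a second, smaller injection where no status epilepticus followed). They also received diazepam to end the status epilepticus, glucose under the skin and a ketogenic diet. CTRL animals were given saline and a standard diet. According to the paper, EEG was recorded through implanted electrodes in some PILO+KD animals, and the labels do not say which. The observation period was 84 days. No control group on the ketogenic diet was analysed here, so the diet, pilocarpine, diazepam, glucose and electrode surgery cannot be told apart in this comparison. A further 4 animals with pilocarpine and standard diet (PILO) shared the fit.

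In mammals, DNA methylation sits mostly on cytosines of CG dinucleotides, and dense methylation of promoters accompanies silent genes. Pilocarpine activates muscarinic receptors and triggers status epilepticus, after which spontaneous seizures develop and neurons and glia of the hippocampus change in number. The ketogenic diet, high in fat and low in carbohydrate, raises ketone bodies and is used against seizures that resist drugs. In Methyl-Seq, fragments with methylated CG sites are captured by a methyl-CpG binding protein and sequenced, so the tags in a region rise with the amount of methylated DNA there. In bulk tissue, a change in the cells present and a change of methylation within cells cannot be told apart. The table names no genes and the RN4 annotation was not used here, so regions are given by position and the tissue label was not checked against marker genes.

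Total tags ranged from 8411986 to 10559592 in CTRL and from 8286533 to 10106466 in PILO+KD, and 1 tag corresponded to 0.0993 to 0.144 counts per 1000000 tags (CPM, scaled by TMM). The tested regions held 92.8% of all tags, were 161 to 23554 bp long with a median of 787 bp, and had a median of 529 tags per kb summed over the 14 animals. At the threshold, 613 regions with exactly the minimum of tags were included and 625 regions with 1 tag fewer were left out. According to the labels, CTRL replicates 2 to 4 and PILO+KD replicates 2 and 3 were sequenced on flow cell FC101, CTRL replicate 1 and PILO+KD replicate 1 on FC084, CTRL replicate 5 and PILO+KD replicate 5 on FC102, and PILO+KD replicate 4 alone on FC104. Each library came from a separate animal.

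Few regions passed the test, and the balance of higher and lower regions changed with the animals left out and with the handling of flow cell. With edgeR's quasi-likelihood test, 1427 regions, 0.92% of those tested, had an unadjusted p below 0.01. Of these, 775 regions (0.5%) were higher and 652 (0.42%) were lower in PILO+KD. Regions with p below 0.05 numbered 6545, or 4.22%. Neither share exceeded its p threshold, and in simulated data 0.982% of unchanged regions had p below 0.01. The simulated regions were drawn independently, without differences shared by the regions of a library. The share called varied from 1.53% in the lowest to 0.119% in the highest quintile of tag density. The comparison with the threshold thus holds for the average only, where the number of calls does not exceed it. Most calls cannot be told from regions that pass without a group difference, and their division into classes below is a description. Benjamini-Hochberg adjustment over all regions left 2 (0.00129%) under an adjusted p of 0.05, 1 higher and 1 lower. This number was 9 without CTRL replicate 2, 4 without either of PILO+KD replicates 1 and 2, 1 without CTRL replicate 4 or PILO+KD replicate 5, and 2 to 3 without any of the others. The median log2 difference of all tested regions was 0.0077, with quartiles at -0.16 and 0.14 and a median standard error of 0.24. Called higher regions had a median log2 difference of 1.03 and called lower regions of -0.86. The log2 difference exceeded 1 in size in 626 called regions and 2 in 15. Higher regions made up 54.3% of the calls. This majority turned into a minority when a single animal was left out in 4 of 10 cases, with higher shares of 49.3% when CTRL replicate 5 was omitted and of 46.4%, 49.3% and 42.7% for PILO+KD replicates 1, 2 and 3 in turn. It grew to 66.0% (971 of 1472) with flow cell as a covariate and to 73.6% (698 of 949) within flow cell FC101, where 3 controls and 2 PILO+KD animals were compared. With scaling by total tags or with limma-voom it was 47.0%. The fit within FC101 also drops animals, and PILO+KD replicate 4 was alone on FC104. Flow cell and animal thus cannot be told apart in these shares. Regions where the CPM of the 5 PILO+KD animals did not overlap that of the 5 CTRL animals numbered 1127, or 0.727% of those tested. This share was no larger than the probability of 0.00794 with which 5 against 5 exchangeable animals separate fully. Among the called regions, 441 (30.9%) were separated in this way, 212 higher and 229 lower. The calls and the separation rest on the same values, so the larger share among calls is no separate support.

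Regions of up to 500 bp were called less often than longer ones. The share called was 0.376% of 532 regions of at most 300 bp (1 higher, 1 lower) and 0.679% of 10453 regions over 300 and up to 500 bp (40 higher, 31 lower). It was 0.965% of 103422 regions over 500 and up to 1000 bp (530 higher, 468 lower), 0.863% of 37787 regions over 1000 and under 2000 bp (179 higher, 147 lower) and 1.04% of 2898 regions of 2000 bp and over (25 higher, 5 lower). The longest class was thus the most one-sided, with 83.3% of its calls higher. Calls in this class were more often higher than lower under each of the 23 alternatives run, and without PILO+KD replicates 1 and 4, the libraries farthest from the others, there were 13 higher and 6 lower. The median length of called regions (786 bp) was close to that of all tested regions (787 bp). These shares describe regions, which are not replicates, and the precision of a region differed between classes, with a median standard error of 0.34 (log2) at 300 bp or less and 0.15 at 2000 bp and over.

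Calls were concentrated in regions of low tag density. From the lowest to the highest quintile of tags per kb, the share called was 1.53%, 1.24%, 1.07%, 0.635% and 0.119%. The lowest quintile held regions below 294 tags per kb and had 319 higher and 156 lower calls. In the second quintile 203 were higher and 182 lower, in the third 148 and 185, in the fourth 79 and 118, and in the highest quintile, above 1079 tags per kb, 26 and 11. The median standard error fell from 0.37 in the lowest quintile to 0.16 in the highest, so the dense regions with the most precise values had the fewest calls. Over all tested regions the median log2 difference was -0.036 in the lowest quintile and 0.057 in the highest. The lowest quintile as a whole was thus not higher in PILO+KD. The excess of higher calls in the lowest quintile kept its direction under all 23 alternatives. Its size varied with single animals, with 193 higher and 108 lower without CTRL replicate 5, 353 and 268 without CTRL replicate 3, 284 and 71 without CTRL replicate 1, 215 and 119 without PILO+KD replicate 1 and 266 and 201 without PILO+KD replicate 3. In the highest quintile the direction was less stable: without PILO+KD replicate 1 there were 14 higher and 38 lower, without CTRL replicate 5 15 of each, within flow cell FC101 17 higher and 27 lower, without PILO+KD replicates 2 or 3 the calls rose to 35 higher and 21 lower or 45 higher and 14 lower, and scaling by total tags alone gave 30 higher and 31 lower. The majority of lower calls in the third quintile turned under 6 of 23 alternatives and that in the fourth quintile under 6 of 23, among them the fit without PILO+KD replicate 4 (260 higher and 153 lower in the third, 170 and 77 in the fourth).

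Length and density were not interchangeable. Longer regions tended to be dense, with a median of 1519 tags per kb at 2000 bp and over against 447 at 500 to 1000 bp. Within the lowest quintile of density the share called was 1.4% at 500 to 1000 bp (370 of 26460) and 2.5% at 1000 to 2000 bp (96 of 3846). In the third quintile these shares were 0.997% and 1.51%, and 7 of 259 regions of 2000 bp and over (2.70%) were called, all higher. In the highest quintile the shares were 0.128%, 0.109% and 0.151% (3 of 1993). Of the 30 calls at 2000 bp and over, 3 thus lay in the highest quintile, which held 1993 of the 2898 regions of this length.

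**Figure D1:**
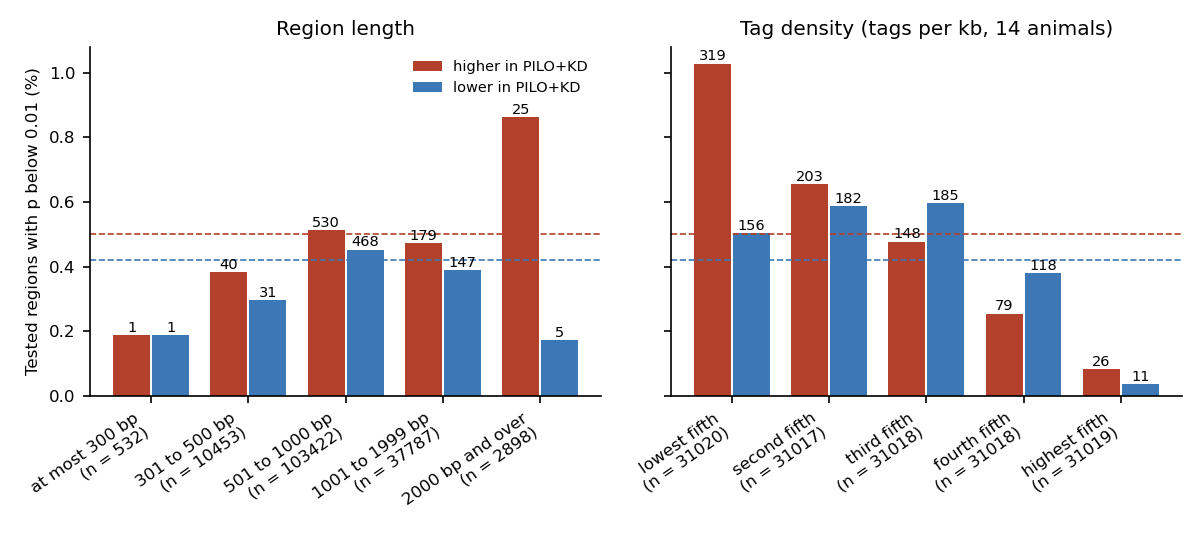
Share of tested regions with p below 0.01 (%, edgeR quasi-likelihood test) by region length (left) and by quintile of tag density (right), with regions higher in PILO+KD in red and lower in blue. Numbers above the bars are called regions, n is the number tested, and dashed lines mark the shares over all tested regions (0.5% higher, 0.42% lower). The bars for higher regions stand out at 2000 bp and over and in the lowest density quintile, and both bars are low in the highest density quintile.

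Among the autosomes, chromosome X and unplaced sequence, X had the smallest share of called regions and unplaced sequence the largest share of higher regions among its calls. On the 20 autosomes the share called ranged from 0.722% (chromosome 7, 65 of 9008) to 1.45% (chromosome 12, 82 of 5671), with 0.932% overall. Higher calls outnumbered lower calls on 12 autosomes and lower outnumbered higher on 7, and on 1 they were equal. Chromosome 9 had 33 higher and 52 lower calls (1.33% called), chromosome 3 had 33 and 52, chromosome 10 had 51 and 24, and chromosome 17 had 34 and 15. On chromosome 12, 37 were higher and 45 lower, which turned to 37 and 30 without CTRL replicate 1, 43 and 36 without CTRL replicate 2, 44 and 39 when PILO+KD replicate 4 was omitted and 41 and 31 for PILO+KD replicate 5, and fell to 17 and 30 without CTRL replicate 5. With flow cell as a covariate 50 were higher and 34 lower there, and within FC101 38 and 17. On chromosome X, 11 of 4809 regions were called (0.229%), 3 higher and 8 lower. Regions on X were denser (median 840 tags per kb) than those on autosomes (median 516). Without CTRL replicate 4 there were 4 higher and 2 lower on X, and without PILO+KD replicate 3 there were 7 and 6.

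On sequence not placed on a chromosome, 62 of 5280 regions were called higher and 2 lower (1.21% called). The median log2 difference of all tested unplaced regions was 0.095, against 0.00075 on the autosomes. Higher calls outnumbered lower calls there under each of the 23 alternatives, but their number depended on few libraries. Without CTRL replicate 5 they numbered 39 against 2, without PILO+KD replicate 4 39 against 4, and without PILO+KD replicates 1 and 4 together 20 against 4. Within flow cell FC101 they numbered 27 against 3. When unplaced and mitochondrial regions were set aside, 17 higher and 5 lower calls remained at 2000 bp and over, and 288 higher and 155 lower in the lowest density quintile.

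**Figure D2:**
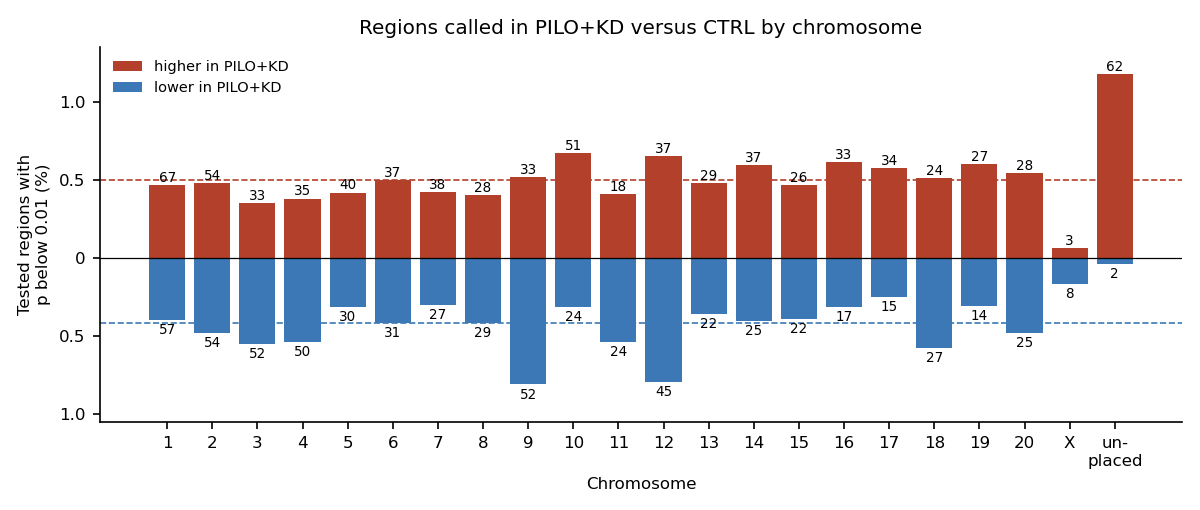
Share of tested regions with p below 0.01 (%) on each chromosome and on unplaced sequence, with regions higher in PILO+KD drawn upward in red and lower regions drawn downward in blue. Numbers are called regions and dashed lines mark the shares over all tested regions. Unplaced sequence had 62 higher and 2 lower calls, and chromosome X had 3 and 8.

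The distribution of tags over the classes did not separate the groups. Each animal gave a single value per class, the percent of its tags in tested regions, and 32 classes were tested with a two-sided exact permutation test over the 10 animals, for which the smallest possible p is 0.00794. None of the 32 had p below 0.05, the smallest was 0.111 and every adjusted p was 0.929. Regions of 2000 bp and over held 13.1%, 12.8%, 12.8%, 13.9% and 13.2% of tags in CTRL replicates 1 to 5 and 14.3%, 12.7%, 12.6%, 14.5% and 14.1% in PILO+KD replicates 1 to 5. PILO+KD replicates 1, 4 and 5 lay above all controls and PILO+KD replicates 2 and 3, on flow cell FC101, lay below all controls, so that the means of 13.2% ± 0.461 (SD, n = 5) and 13.6% ± 0.892 (SD, n = 5) did not differ beyond the spread (exact permutation test, two-sided, p = 0.405). The highest density quintile held 57.0% ± 2.28 in CTRL and 58.3% ± 3.12 in PILO+KD (SD, n = 5 each, exact permutation test, p = 0.476), with the highest value, 63.2%, in PILO+KD replicate 1. Unplaced sequence held 7.48% ± 0.560 and 7.87% ± 0.594 (SD, n = 5 each, exact permutation test, p = 0.317). Chromosome X held 4.23%, 4.24%, 4.50%, 4.71% and 4.75% in the CTRL animals and 4.56%, 4.11%, 4.15%, 5.31% and 4.76% in the PILO+KD animals (exact permutation test, p = 0.786). PILO+KD replicate 4 was highest there and had the lowest share of the 10 animals on 11 of the 20 autosomes.

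**Figure D3:**
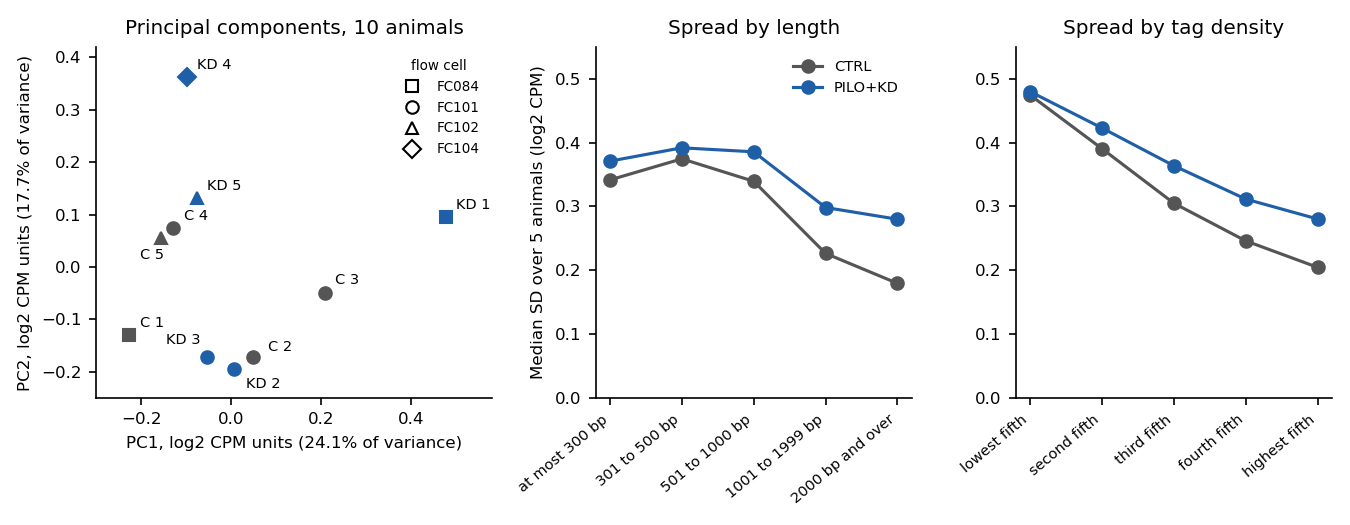
Left, the first 2 principal components of log2 CPM over the tested regions for the 10 animals (C, CTRL in grey, KD, PILO+KD in blue, numbers are replicates, symbols are flow cells). Middle and right, the median over regions of the SD among the 5 animals of a group (log2 CPM) by length class and density quintile. PILO+KD replicates 1 and 4 lay farthest out, and the SD of PILO+KD exceeded that of CTRL most in long and dense regions.

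Resemblance within groups was not separated from resemblance between groups at this sample size. The log2 CPM of the tested regions correlated between animals with a mean Pearson r of 0.905 within PILO+KD (0.886 to 0.933), 0.917 within CTRL (0.902 to 0.930) and 0.909 between the groups (0.877 to 0.940). These values are across regions, which are not independent replicates. The mean within groups exceeded that between groups by 0.00185 (exact permutation test over animals, one-sided, p = 0.262). The mean r within PILO+KD was lower than within CTRL by 0.0121, which the arrangements of animals did not separate either (exact permutation test, two-sided, p = 0.270). PILO+KD replicate 2 correlated more with the controls (0.922) than with its own group (0.911), as did PILO+KD replicates 3 (0.918 and 0.910) and 4 (0.903 and 0.896), whereas for replicate 5 the means were nearly equal (0.910 and 0.909) and PILO+KD replicate 1 correlated least with the controls (0.896).

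Within regions, the median SD between animals was higher in PILO+KD, and it fell most when PILO+KD replicate 1 or 4 was omitted. The median SD of log2 CPM over regions was 0.357 in PILO+KD and 0.307 in CTRL, and the SD was larger in PILO+KD in 63.0% of regions. The ratio of the median SDs was 1.05 at 300 to 500 bp, 1.14 at 500 to 1000 bp, 1.32 at 1000 to 2000 bp and 1.56 at 2000 bp and over, and it rose from 1.01 in the lowest density quintile to 1.37 in the highest. On chromosome X it was 1.36, against 1.12 to 1.21 on the autosomes. The median SD of PILO+KD was 0.325 when PILO+KD replicate 1 was omitted, 0.323 when replicate 4 was omitted and 0.358 to 0.366 when replicate 2, 3 or 5 was omitted. With replicates 1 and 4 both omitted it was 0.264, below the CTRL value of 0.307. That value rests on PILO+KD replicates 2, 3 and 5 only, so it is not directly comparable with an SD over 5 animals. Replicates 1 and 4 were picked as the libraries farthest from the others, so a lower SD without them follows from the choice. No pair of controls was omitted. With replicate 1 or 4 alone omitted, the median SD of PILO+KD stayed above 0.307. Omitting a single control gave 0.287 to 0.301 in CTRL. The first principal component (24.1% of the variance) set PILO+KD replicate 1 apart and the second (17.7%) PILO+KD replicate 4. PILO+KD replicate 4 was the only library of its flow cell, so animal and flow cell cannot be told apart.

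PILO+KD replicate 1 also led many of the calls. It was the highest of the 5 PILO+KD animals in 412 of the 775 regions called higher (53.2%), against 23.5% of all tested regions. Among the 652 regions called lower it was the lowest PILO+KD animal in 246 (37.7%), against 26.1% of all tested regions. PILO+KD replicate 4 was highest in 96 of the 775 higher calls, against 23.6% of all tested regions, and lowest in 161 of the 652 lower calls (24.7%), against 26.1%. Without PILO+KD replicate 1, 1148 regions were called, 533 higher and 615 lower, and without PILO+KD replicate 4, 1562 were called, 1007 higher and 555 lower. Without PILO+KD replicates 1 and 4 together, 1113 regions were called, 679 higher and 434 lower.

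The 2 regions with an adjusted p below 0.05 differed in every animal. The region chr4:162809983-162810605 (RN4, 623 bp) had 4.57, 3.69, 3.73, 4.05 and 3.6 CPM in CTRL replicates 1 to 5 and 0.719, 0.421, 0.565, 0.774 and 0.848 CPM in PILO+KD replicates 1 to 5. All PILO+KD animals lay far below all controls, on 4 to 8 tags each against 29 to 46. The log2 difference was -2.54 ± 0.30 (SE, edgeR, adjusted p = 0.000232), and within flow cell FC101 it was -2.91. The 4 PILO animals, without the diet, had 0.308 to 0.883 CPM in this region. The region chr10:96179352-96180090 (739 bp) had 1.09, 0.559, 0.773, 0.633 and 2.07 CPM in CTRL and 5.75, 3.90, 3.61, 2.65 and 5.09 CPM in PILO+KD. The groups did not overlap here either, and the log2 difference was 1.99 ± 0.31 (SE, edgeR, adjusted p = 0.0235). The PILO animals had 2.38 to 3.78 CPM. Both regions were between 500 and 1000 bp long.

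The next regions by p each held an animal that lay with the other group. The region chr5:168727249-168732825, with 5577 bp the strongest lower call of the longest class, had 43.8, 40.1, 36.8 and 41.8 CPM in CTRL replicates 1, 2, 4 and 5 but 1.42 CPM in CTRL replicate 3. In the PILO+KD animals it had 2.16 to 2.82 CPM. One control thus lay below all PILO+KD animals, and among the PILO animals replicate 3 had 35.8 CPM and the others 2.07 to 2.31. The values fell into a high and a low state with nothing between them, and the high state held 4 controls and 1 PILO animal. The log2 difference was -3.73 ± 0.62 (SE, edgeR, adjusted p = 0.0581). The region chr3:39665280-39665888 (609 bp) had 0 to 0.327 CPM in CTRL, and in PILO+KD 8.34, 0.105, 2.49, 2.32 and 2.12 CPM. PILO+KD replicate 2, with 1 tag, lay among the controls, whereas PILO+KD replicate 1 far exceeded the other 4. Its log2 difference was 3.93 ± 0.75 (SE, edgeR, adjusted p = 0.388).

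Of the remaining higher regions with the smallest p, 2 lay on chromosome 11 within 1 Mb of each other. The region chr11:11301861-11302514 had 0.109 to 1.16 CPM in CTRL and 1.59 to 3.79 CPM in PILO+KD without overlap (log2 difference 2.35 ± 0.45). The region chr11:10716539-10717152 had 0.253 to 1.12 CPM in CTRL and 0.885 to 6.85 CPM in PILO+KD, where replicate 4 lay among the controls (2.34 ± 0.47). The region chr6:28595584-28596294 had 0.127 to 0.695 CPM in CTRL and 1.05 to 2.59 CPM in PILO+KD (1.84 ± 0.39, with an unadjusted p of 0.0103 in edgeR within flow cell FC101), and chr20:4913238-4913786 had 0.380 to 1.49 CPM in CTRL and 1.91 to 5.42 CPM in PILO+KD (1.65 ± 0.36), both without overlap. Each of these 4 had p between 1.29e-05 and 8.42e-05 in edgeR's quasi-likelihood test and an adjusted p of 0.399 to 0.614.

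Among the lower regions, chr2:227442588-227443690 (1103 bp) had 24.6, 11.4, 11.7, 4.43 and 14.5 CPM in CTRL and 2.86 to 4.41 CPM in PILO+KD, so the groups did not overlap but CTRL replicate 4 nearly reached the highest PILO+KD animal (log2 difference -1.92 ± 0.39). On chromosome 4, chr4:160660038-160660807 fell from 1.65 to 5.92 CPM in CTRL to 0.144 to 1.47 CPM in PILO+KD (-1.80 ± 0.38), and chr4:153350061-153350806 from 2.46 to 6.57 CPM to 0.332 to 2.30 CPM (-1.74 ± 0.37), so that 3 of the 8 lower regions with the smallest p lay on this chromosome. Chromosome 4 held 9238 of the 155092 tested regions and 50 of the 652 lower calls. Its share called, 0.92%, was that of all tested regions. The region chr5:20477899-20478335 had 1.01 to 2.84 CPM in CTRL and 0.424 to 0.632 CPM in PILO+KD (-1.92 ± 0.41). Within flow cell FC101 the chr2 region had a log2 difference of -1.27 and this chr5 region of -1.32, with edgeR's unadjusted p at 0.0190 and 0.0356, so neither was called there. The region chr3:115237832-115238433 had the smallest spread of these among the controls, with 3.93 ± 0.494 CPM (SD, n = 5) in CTRL and 1.80 ± 0.390 CPM (SD, n = 5) in PILO+KD (log2 difference -1.11 ± 0.24). These 5 regions had adjusted p values of 0.511 to 0.553 in edgeR's quasi-likelihood test and did not overlap between the groups.

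**Figure D4:**
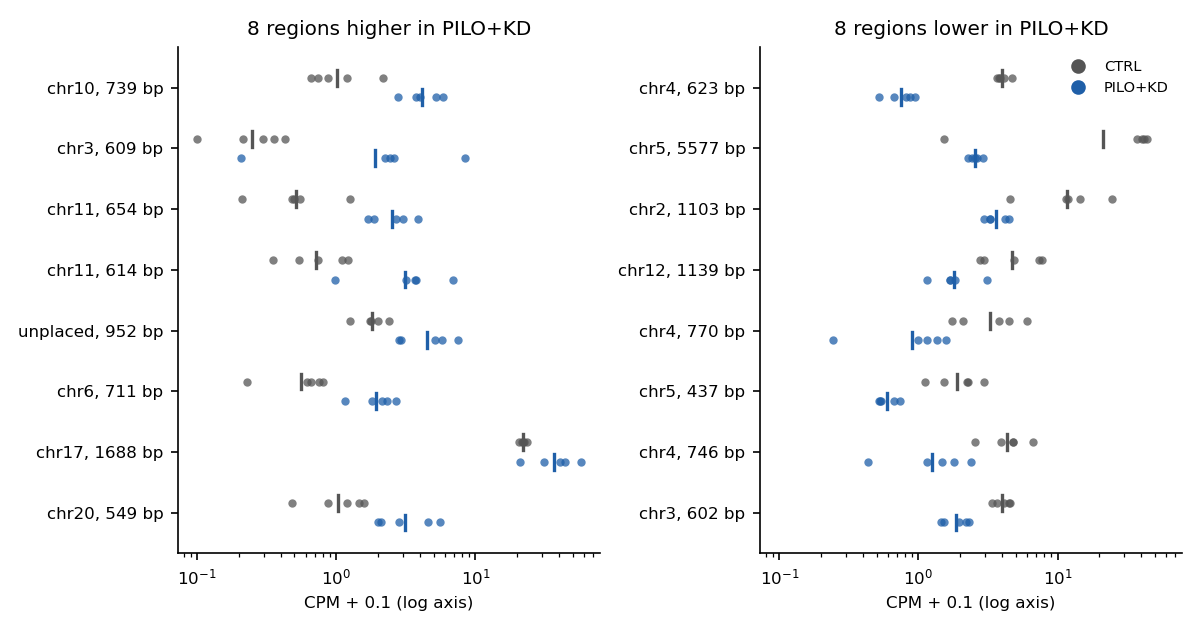
CPM per animal (plus 0.1, log axis) of the 8 higher (left) and 8 lower (right) regions with the smallest p in PILO+KD versus CTRL, labelled by chromosome and length. Points are animals (grey CTRL, blue PILO+KD, n = 5 each) and vertical ticks are geometric means of CPM + 0.1. A PILO+KD point lies among the controls in the chr3, 609 bp, chr11, 614 bp, chr17, 1688 bp and chr12, 1139 bp regions, and a control lies below the PILO+KD points in the chr5, 5577 bp region.

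The strongest calls of the other length and density classes ranked lower by p. At 2000 bp and over the strongest higher call, chr2:132062-134353 (2292 bp), had 19.6, 5.48, 13.3, 14.7 and 11 CPM in CTRL and 41.0, 22.4, 28.7, 22.9 and 16.4 CPM in PILO+KD. CTRL replicate 1 lay above PILO+KD replicate 5, and the log2 difference was 1.03 ± 0.23 (SE, edgeR, adjusted p = 0.614). In the highest density quintile the strongest lower call, chr4:174838530-174840439, had 31.7 to 46.7 CPM in CTRL and 21.8 to 35.5 CPM in PILO+KD (-0.67 ± 0.17). In the lowest quintile the strongest lower call, chr12:5690974-5691648, had 1.01 to 3.27 CPM in CTRL and 0 to 0.663 CPM in PILO+KD (-2.18 ± 0.50). At 300 to 500 bp the strongest higher call, chr9:5863619-5864003, had 0.397 to 0.759 CPM in CTRL and 1.02 to 2.88 CPM in PILO+KD (1.69 ± 0.43), and within flow cell FC101 the log2 difference was 0.97 and edgeR's unadjusted p was 0.137. The only called regions of at most 300 bp were chr4:174752829-174753115 (log2 difference 1.15 ± 0.35, CTRL 0.380 to 1.99 CPM and PILO+KD 1.48 to 3.74 CPM) and chr18:23236624-23236923 (-0.87 ± 0.30, CTRL 1.64 to 2.62 CPM and PILO+KD 0.719 to 1.69 CPM). Without a single animal, the largest p of these 2 regions were 0.0112 and 0.0225 in edgeR, above the threshold of 0.01. Within flow cell FC101 the chr18 region was not called either (log2 difference -0.42, unadjusted p = 0.347 in edgeR). The other 21 called regions among those chosen by rule kept p below 0.01 when any single animal was left out. They were chosen for a small p, which favours this, so it does not describe the calls as a whole.

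Called regions lay near each other more often than regions that were not called. Another called region lay within 10 kb of 105 of the 1427 called regions (7.36%) and of 1.77% of the uncalled ones, and in 84 of the 105 (80.0%) the nearest of them had changed in the same direction. Within 100 kb the shares were 28% and 13.7%, with the same direction in 67.8%. Of 2807 windows of 1 Mb with a tested region, 879 held a call, 26 held 5 or more, and in 8 of these 26 all calls had the same direction, higher in 7 and lower in 1. The called regions were chosen by comparing these animals, so a separation of the groups in their summed CPM, given below, is no result.

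On chromosome 17, 14 of the 99 tested regions of a 1 Mb window were called, all higher, between 72114779 and 72502525. Their summed CPM was 121, 128, 117, 119 and 111 in CTRL and 237, 124, 183, 205 and 222 in PILO+KD, so 4 PILO+KD animals lay above all controls and PILO+KD replicate 2 lay among them. In the 4 PILO animals it was 149 to 187. The strongest of these regions, chr17:72212672-72214359, the strongest higher call of the highest density quintile, had 20.5 to 23.5 CPM in CTRL and 57.0, 20.9, 30.7, 40.4 and 43.9 CPM in PILO+KD (log2 difference 0.81 ± 0.18, SE, edgeR, adjusted p = 0.614). Within flow cell FC101 its log2 difference was 0.22 and edgeR's unadjusted p was 0.287. All 99 tested regions of the window, the called ones among them, summed to 464 to 510 CPM in CTRL. In PILO+KD replicates 1 to 5 they summed to 642, 469, 581, 634 and 649 CPM. On chromosome 14, 12 of the 62 tested regions of a window were called, all higher, between 49054496 and 49818962. Their summed CPM was 39.6 to 65.2 in CTRL and 130, 62.9, 67.3, 140 and 84.4 in PILO+KD, so PILO+KD replicates 1 and 4 were highest and PILO+KD replicate 2 lay among the controls. All 62 tested regions of this window summed to 868 to 1066 CPM in CTRL. In PILO+KD replicates 1 to 5 they summed to 1359, 974, 944, 1254 and 1078 CPM.

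On chromosome 16, 5 consecutive regions of 3311 to 13008 bp spanning 37378 bp (37866383 to 37903760) were all called higher, with log2 differences of 0.54 to 0.94. The run supplied 5 of the 25 higher calls at 2000 bp and over. Its summed CPM was 75.6, 84.3, 119, 84.4 and 77.8 in CTRL and 228, 95.6, 117, 207 and 127 in PILO+KD. PILO+KD replicates 1 and 4 were high, and PILO+KD replicates 2 and 3 lay within the range of the controls. In the PILO animals it was 193, 79.7, 167 and 81.4 for replicates 2 to 5. On unplaced sequence, 8 of the 45 tested regions of a window were called, all higher, between 45138723 and 45726872, with summed values of 9.27 to 13.8 CPM in CTRL and 33.8, 16, 15.8, 35.3 and 26.2 CPM in PILO+KD. The strongest of them, 45194185 to 45195136, had 1.16 to 2.28 CPM in CTRL and 2.74 to 7.41 CPM in PILO+KD (log2 difference 1.43 ± 0.29, SE, edgeR, adjusted p = 0.511). Within flow cell FC101 its log2 difference was 0.71 and edgeR's unadjusted p was 0.0957.

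The single window with 5 or more calls that were all lower lay on chromosome 12. Its 5 called regions between 5188474 and 5691648 summed to 12.9, 13.7, 17.4, 19.0 and 22.5 CPM in CTRL and to 6.91, 6.95, 6.32, 9.95 and 6.57 CPM in PILO+KD, without overlap. The first of them, chr12:5188474-5189612, had 2.69 to 7.59 CPM in CTRL and 1.06 to 2.98 CPM in PILO+KD, where replicate 4 lay among the controls (-1.48 ± 0.30). All 206 tested regions of the window together summed to 1017 to 1169 CPM in CTRL and 909 to 1182 CPM in PILO+KD. In the windows with higher calls, PILO+KD replicates 1, 4 and 5 lay above PILO+KD replicates 2 and 3 on chromosomes 14, 16 and 17, on both windows of chromosome 1 and on both unplaced windows. PILO+KD replicates 2 and 3 are the PILO+KD libraries of flow cell FC101. CTRL replicates 1 and 5 were on the flow cells of PILO+KD replicates 1 and 5, and no control was on that of PILO+KD replicate 4. Of the PILO libraries, replicates 2, 3 and 4 were on FC101 and replicate 5 on FC102. In PILO replicates 2 to 5 the called regions summed to 121, 45.2, 88.8 and 50.05 CPM on chromosome 14. In the unplaced window from 45138723 the sums were 28.1, 12.6, 23.4 and 11.5 CPM, and on chromosome 17 they were 149, 182, 176 and 187 CPM. The part of the flow cell in these runs was not tested.

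**Figure D5:**
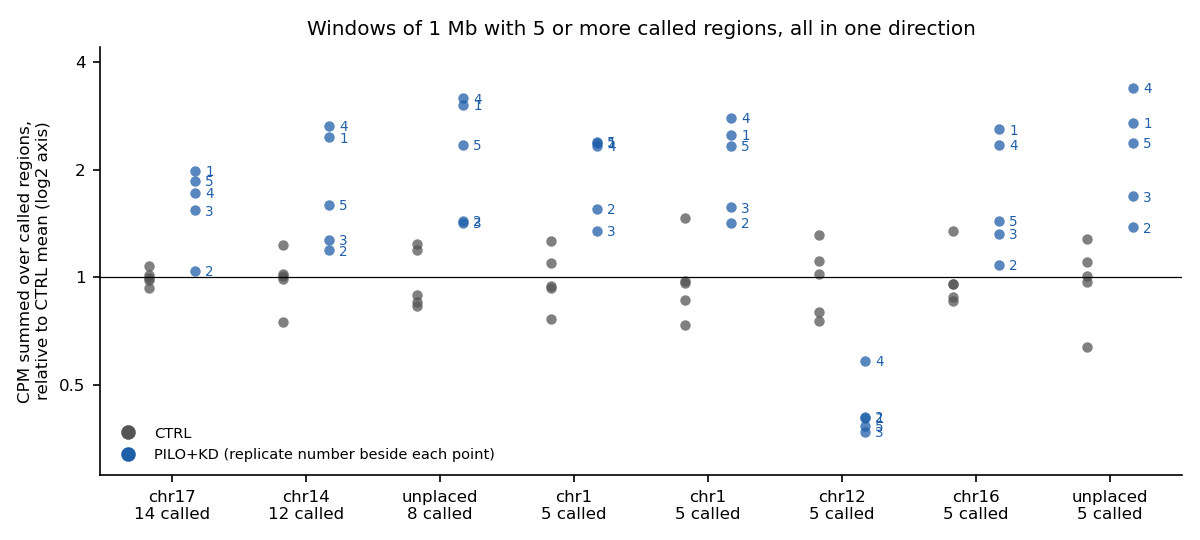
CPM summed over the called regions of the 8 windows of 1 Mb with 5 or more calls in a single direction, relative to the CTRL mean (log2 axis), for each CTRL (grey) and PILO+KD (blue, replicate number beside the point) animal. The regions were chosen by comparing these animals, so the separation itself is no result. PILO+KD replicates 1, 4 and 5 lie above replicates 2 and 3 in the 7 windows with higher calls.

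At the loci that the study followed by bisulfite sequencing, chosen with these samples in view and thus no independent evidence, 1 of 2 regions was called. Il10rb encodes a subunit shared by receptors of the interleukin-10 family. The region overlapping its amplicon, chr11:31381090-31382012, had 6.56, 5.04, 7.47, 5.44 and 5.45 CPM in CTRL and 2.59, 4.63, 3.05, 2.32 and 3.08 CPM in PILO+KD. The groups did not overlap, with PILO+KD replicate 2 just under the lowest control (exact permutation test, two-sided, p = 0.00794, the smallest it can give), and the log2 difference was -0.92 ± 0.22 (SE, edgeR, adjusted p = 0.622). Within flow cell FC101 it was -0.61 with an unadjusted p of 0.0506 in edgeR, no longer past the threshold. The 4 PILO animals had 2.00 to 4.44 CPM, with a mean of 3.18 against 3.13 in PILO+KD. Camkk2 encodes a kinase that responds to calcium and calmodulin and activates AMPK. The region overlapping its amplicon, chr12:34936037-34936702, had 0.633 to 1.79 CPM in CTRL and 0.774 to 2.15 CPM in PILO+KD on 5 to 19 tags per animal. The groups overlapped, with a log2 difference of 0.38 ± 0.39 (SE; exact permutation test, two-sided, p = 0.310), which was not detectable at this depth. The 4 PILO animals had 0.888 to 2.93 CPM in this region. By bisulfite sequencing, the paper reports that the diet lowered the raised Camkk2 methylation of PILO animals. It also reports that the diet reversed their lowered Il10rb methylation. PILO+KD was not tested against PILO here, and the regions extend beyond the amplicons.

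The mitochondrial region (2 to 2382, 2381 bp), singled out after its values were seen, had 22.9, 34.8, 40.2, 11.3 and 23.8 CPM in CTRL and 54.1, 133, 39.3, 21.6 and 38.2 CPM in PILO+KD. PILO+KD replicate 2 was far above the others, and PILO+KD replicates 3, 4 and 5 lay within the range of the controls. The log2 difference was 1.11 ± 0.37 (SE, edgeR; exact permutation test, two-sided, p = 0.127), and without PILO+KD replicate 2 it was 0.52 and no longer past the threshold in edgeR.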

How the data were processed

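The authors captured methylated DNA from 500 ng of hippocampal DNA of each animal. Single 36 bp reads were mapped with BWA to RN4 and duplicates dropped. MACS 1.4.0 found regions between pairs of samples, which were merged before tags were counted. The deposited values are these tag counts as whole numbers, without normalization. A region entered the table when any pair of animals differed, also within a group.

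Regions with a tag sum over 14 animals below the median, the limit used in the study, were removed. After TMM scaling, edgeR 4.0.16 (R 4.3.3) fitted its quasi-likelihood model to all 14 animals, a mean per group and no covariate, with calls at p below 0.01 as in the study. Standard errors are the log2 difference over the square root of F. Values are CPM. For log2 CPM the prior count was 2. Shares and correlations were tested by exact permutation over animals. Coordinates are RN4, counted from 1. Lengths, quintiles of density (tags per kb over 14 animals) and chromosomes defined the classes.

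Named regions are the 8 higher and 8 lower with the smallest p, the strongest call in each direction per length and density class, and any region that shares 1 bp or more with the amplicon for Camkk2 or Il10rb. The comparison, classes and rules were chosen with earlier results of these data known. Windows, runs and the mitochondrial region were picked after their values were seen. The replicate number of the PILO+KD animal without a number in the labels is a name only.

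The fit was tested on simulated data. Alternatives changed the scaling, the filter, the test (DESeq2 1.42.0, edgeR's exact test, limma-voom in limma 3.58.1), the animals or the covariates. Within CTRL and within PILO+KD no library was a copy of another (chi-square per degree of freedom 1.63 to 4.87). Pairs between these groups and the PILO libraries were not examined in this way. Gene content of regions was not analysed here.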

Additional observations from a re-analysis of the deposited data

Results flagged for a closer look

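Of 114 groups of 5 animals examined for a single distant value, 2 were flagged, where chance flags about 1 in 20. In the region chr5:168727249-168732825, CTRL replicate 3 had 1.42 CPM and the other 4 controls 36.8 to 43.8 CPM, a gap of 0.835 of the range. In the region chr3:39665280-39665888, PILO+KD replicate 1 had 8.34 CPM and the other 4 PILO+KD animals 0.105 to 2.49 CPM, a gap of 0.711 of the range.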

How the results depend on the processing

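Of 558 refitted values of the named regions, 526 kept their direction and side of p 0.01, 32 kept the direction but not the threshold, and 0 reversed. Most of these regions were chosen for a small p, which favours such an outcome. The 1427 calls became 2934 without a filter (of 310068 regions), 641 with at least 10 tags in every animal, 949 within flow cell FC101 and 950 with a replicate block, and 983 to 1688 with an animal left out. The share of calls higher in PILO+KD (54.3%) became 47.0% with total tags or limma-voom, 73.6% within FC101, 66.0% with flow cell as a covariate and 42.7% to 64.5% with an animal left out. Adjusted p fell below 0.05 in 1 region with total tags, limma-voom or without PILO+KD replicates 1 and 4 (an alternative chosen after seeing the data), in 6 without a filter, within FC101 or with the replicate block, in 4 with only the 10 animals compared, in 14 with edgeR's exact test, in 0 with at least 10 tags in every animal (641 at unadjusted p below 0.01 in edgeR) and in 1 to 9 with an animal left out. Within FC101 the differences in tag share turned to -0.533 percentage points at 2000 bp and over, 0.852 in the lowest and -2.70 in the highest density quintile, -0.352 on X and -0.0113 on unplaced sequence. With an animal left out, those of the lowest quintile ranged from -0.400 to 0.158 and of X from -0.0908 to 0.208, 0 to 1 class had p below 0.05, and the correlation within minus between groups ranged from -0.000918 to 0.00497. The causes were not tested. Animals with the same replicate number in CTRL and PILO+KD correlated at -0.286 to 0.194 in their deviations from the group means and were not treated as paired, although the animals numbered 1, 2 and 3, but not those numbered 4, also shared a flow cell. The replicate block left out the unnumbered animal. With 5 animals a group, log2 differences near the median standard error of 0.24 were not detectable.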
